A study of Mus musculus with 3 samples.

Results

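The enzymes that make, destroy and obey the cyclic nucleotides cAMP and cGMP were followed as 1 family of 44 genes in RNA sequencing of cultured mouse hippocampal neurons. Members were chosen by gene symbol alone, out of 47593 gene rows: adenylyl cyclases (Adcy1 to Adcy10), phosphodiesterases (Pde with a family number and a letter from a to d), catalytic and regulatory subunits of protein kinase A (PKA), protein kinases G (PKG) and subunits of soluble guanylyl cyclase (Gucy1). The symbol rule itself uses no measured value. The data are 3 libraries, replicates 1 to 3, of a single group: wild-type (WT) primary neurons labelled as hippocampus, given fresh neural substrates with B27 and penicillin-streptomycin. Their Neurobasal medium held 10% B27 together with 1% GlutaMAX, culture was at 37 °C under 5% CO2, and the series design names a treatment of 24 h. That design also names neurons given apoE particles, which were not analysed here, so no treatments were compared. The labels state neither the age of the mice nor whether each library is its own culture or animal. All SDs below measure the spread of these libraries, which may be technical. The p-values rest on the same libraries and say nothing of the spread between animals.

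cAMP is made from ATP by adenylyl cyclases, most of them membrane proteins switched by G proteins and calcium, and cGMP is made by guanylyl cyclases, of which the soluble form is the receptor for nitric oxide. Phosphodiesterases break the messengers down and differ in which of them they accept. PKA, a tetramer of regulatory and catalytic subunits that comes apart when cAMP binds, and PKG, which answers to cGMP, are the main kinases downstream, and in hippocampal neurons the cAMP branch is known for its part in long-lasting synaptic potentiation and memory.

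Whole reads were recovered from the deposited log2 values, as described under processing, and summed to 18683959 to 18885652 per library. Levels are counts per 1000000 reads (CPM). Where different genes are compared, levels are CPM per kilobase of annotated exon. All 8 neuron markers examined were detected, led per kilobase by Mapt, Tubb3 and Stmn2, and summed to 6294 to 6337 CPM. Markers that set hippocampal neurons apart from others were not examined. The cultures also held RNA of other cells. Detected were 7 of 8 astrocyte markers, with summed levels of 1804 to 1825 CPM in the 3 libraries. For the oligodendrocyte lineage 6 of 8 were detected (278 to 295 CPM), led by Olig1 and Olig2 with means of 159 and 67.1 CPM. Pdgfra, Mbp, Mog and Sox10 lay at 28.4, 21.5, 9.80 and 2.89 CPM, and Mag and Gpr17 had only 2 and 12 reads. Of 8 microglial markers 1 was detected (4.21 to 6.53 CPM), and of 8 endothelial and mural markers 4 (55.0 to 60.3 CPM). These 4 were Dcn, Acta2, Pdgfrb and Kdr, with means of 23.2, 19.8, 9.21 and 4.03 CPM. Pecam1, Cdh5, Rgs5 and Cldn5 were not detected, Cldn5 with 0 reads. From which of these cells the RNA of a member came was not tested, and in a bulk culture fewer cells of a type and less RNA per cell cannot be told apart.

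A gene was called detected from 1 CPM upwards in all 3 libraries. Of the 44 members 36 were detected, or 81.8%, against 28.7% of all gene rows and 58.2% of protein coding genes. The median level over all 44 members was 28.5 CPM, against 5.32 CPM for protein coding genes, and 13 members lay above 100 CPM. Among detected genes alone the medians were closer, 48.7 CPM for members and 33.1 CPM for protein coding genes. Together the members took 4239, 4226 and 4204 CPM in replicates 1, 2 and 3, a sum that differed little between libraries. Detected members ranged from 2.22 CPM for Prkg2 to 688 CPM for Adcy1. The 8 undetected members lay below 1 CPM in every library, with 1 to 37 reads in all.

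**Figure D1:**
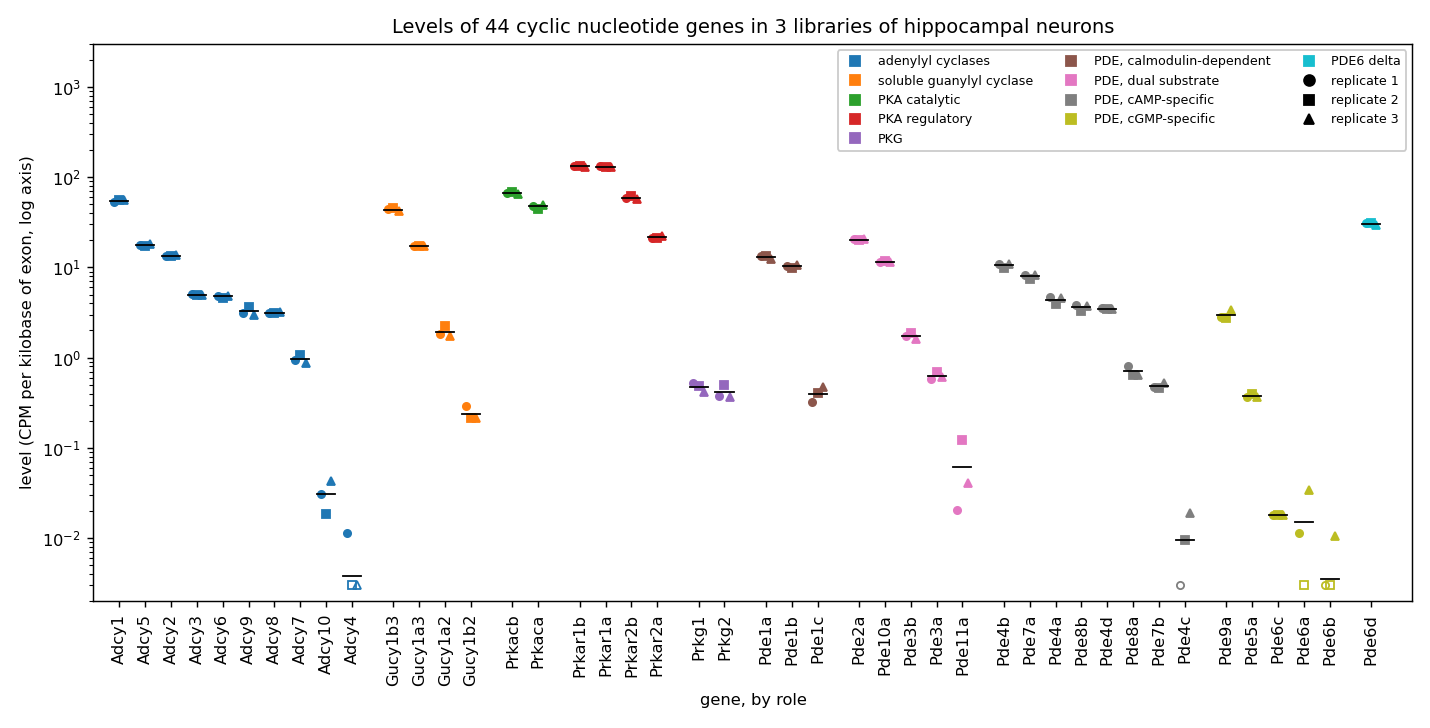
Level of each of the 44 members in CPM per kilobase of exon (log axis), grouped by role. Circles, squares and triangles are replicates 1, 2 and 3, black bars are means, and open symbols at the bottom mark libraries with no reads; the regulatory PKA subunits Prkar1b and Prkar1a stand highest at 132 and 131, and the photoreceptor genes Pde6a, Pde6b and Pde6c are among the lowest.

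Among the adenylyl cyclases, Adcy1 dominated. This calcium- and calmodulin-stimulated enzyme, known for its role in hippocampal plasticity, reached 53.7, 55.8 and 55.3 CPM per kilobase in replicates 1, 2 and 3. It made up 53.2% ± 0.63 (SD, n = 3) of the summed cyclase level per kilobase, and 69.9% where levels were not divided by length. At 688 ± 14 CPM it ranked 109 among all gene rows. Adcy1 lies on chromosome 11 from 7063489 to 7178506 in GRCm38, and its annotated exons sum to 12522 bases.

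Adcy5 came next with 17.9, 17.1 and 18.1 CPM per kilobase (17.2% of the sum). It is inhibited by calcium and is best known as the main cyclase of striatal neurons. Adcy2, which is stimulated by G protein beta-gamma subunits, followed at 13.2, 13.3 and 13.6 CPM per kilobase. The ranges of these 3 cyclases did not overlap. The remaining detected cyclases lay well below, from 5.01 ± 0.08 CPM per kilobase for Adcy3, the cyclase of olfactory signalling and neuronal cilia, through Adcy6 (4.77 ± 0.13), Adcy9 (3.25 ± 0.31) and Adcy8 (3.15 ± 0.02) to Adcy7 (0.95 ± 0.09). Without length scaling Adcy6 (32.4 CPM) lay above Adcy3 (31.3 CPM) and Adcy8 (25.7 CPM) above Adcy9 (16.9 CPM).

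The calcium-stimulated cyclases were thus unequally expressed. Within a library, Adcy1 exceeded Adcy8, the other calmodulin-stimulated cyclase of the hippocampus, by 3.92 ± 0.02 log2 units per kilobase, a 15.2-fold ratio. Over Adcy3 its lead was 3.33 ± 0.05 log2 units, or 10.1-fold. Without length scaling these leads were 4.71 and 4.44. Of the calcium-inhibited pair, Adcy5 exceeded Adcy6 by 1.79 ± 0.01 log2 units, and Adcy2 exceeded Adcy9 by 1.89 ± 0.13. Adcy9 and Adcy8, neighbours in the order of levels, changed places between libraries. Adcy10, the bicarbonate-sensitive soluble cyclase, had 5, 3 and 7 reads, and Adcy4 had 1 read in replicate 1 and none in the others. No reads in a library allow a level of up to 0.159 to 0.161 CPM there, the value of 3 reads, counting error only.

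Soluble guanylyl cyclase works as a dimer of an alpha and a beta subunit, and the data showed 1 prominent gene of each kind. Gucy1b3 (now Gucy1b1, the beta 1 subunit) reached 43.9, 45.2 and 42.0 CPM per kilobase and Gucy1a3 (now Gucy1a1, the alpha 1 subunit) 17.3, 17.3 and 17.1. The beta 1 gene was the higher in every library, by 1.32 ± 0.05 log2 units per kilobase, or 0.51 where levels were not divided by length. Gucy1a3 exceeded Gucy1a2, which encodes the alternative alpha 2 subunit, by 2.87 ± 0.15 log2 units. Gucy1a2 lay at 1.85, 2.23 and 1.72 CPM per kilobase, highest in replicate 2. Gucy1b2 had 15, 11 and 11 reads and was not detected. Summed per kilobase, the 10 adenylyl cyclase genes exceeded the 4 soluble guanylyl cyclase genes by 0.70 ± 0.05 log2 units. This was 1.69 without length scaling, 0.36 with the longest annotated transcript and −0.51 with the mean of the log2 levels of the genes in place of their sum. The genes of the alpha 1 and beta 1 subunits lie on the same strand of chromosome 3, 17737 bases apart, with Gucy1b3 from 82032006 to 82074689 and Gucy1a3 from 82092427 to 82145789.

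Per kilobase, the 4 highest members were all PKA genes. The regulatory subunits hold the catalytic subunits inactive through a short stretch that fits the active site, and this stretch separates type I from type II subunits: type II carries a serine that the kinase phosphorylates, type I another residue in its place. The coding sequences of that stretch in the 4 regulatory genes are shown because the levels below are given by type. They are GENCODE M21 transcript sequences on GRCm38, 39 bases each, 5′ to 3′ on the coding strand, with the codon of the residue at the phosphorylation position in capitals.
Prkar1a: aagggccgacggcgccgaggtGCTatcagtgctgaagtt
Prkar1b: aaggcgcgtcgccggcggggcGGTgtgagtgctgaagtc
Prkar2a: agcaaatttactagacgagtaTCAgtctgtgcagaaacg
Prkar2b: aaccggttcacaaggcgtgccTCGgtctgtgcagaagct

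The capitals are codon 99 in both type I genes, codon 97 in Prkar2a and codon 112 in Prkar2b; they encode alanine in Prkar1a, glycine in Prkar1b and serine in both type II genes. The stretch lies in exon 4 of Prkar1a (chr11:109660095-109660133, plus strand) and exon 3 of Prkar1b (chr5:139108520-139108558, minus strand). In Prkar2a (chr9:108714284-108716876, plus strand) and Prkar2b (chr12:31993770-32038646, minus strand) it runs from exon 2 into exon 3, so that these coordinates include an intron. Of the 39 bases, 28 were identical between the type I genes and 26 between the type II genes, against 16 between Prkar1a and Prkar2a and 19 between Prkar1b and Prkar2b.

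Both type I genes stood above both type II genes in every library. Prkar1b, the neuron-enriched form, lay at 134, 132 and 131 CPM per kilobase, and Prkar1a, the widely expressed form, at 134, 129 and 130. Their difference was within the spread of the libraries (Prkar1a over Prkar1b −0.01 ± 0.02 log2 units, higher in 1 library and lower in 2; exact sign-flip permutation p = 0.5). It was 0.17 without length scaling and −0.24 with the longest annotated transcript. Prkar1b shares 8.95% of its exon bases with Gm15672 on the same strand. Whether that overlap altered its value was not tested, so the order of Prkar1a and Prkar1b is uncertain. Prkar2b, the type II form prominent in brain, followed at 59.4, 61.3 and 57.0 CPM per kilobase, below Prkar1b by 1.15 ± 0.05 log2 units. Prkar2a was lowest at 21.4, 21.1 and 22.5 CPM per kilobase, and Prkar2a over Prkar2b was −1.43 ± 0.10 (−0.65 without length scaling). Type I transcripts thus accounted for 38.1% (Prkar1a) and 38.4% (Prkar1b) of the summed regulatory level per kilobase, Prkar2b for 17.2% and Prkar2a for 6.29%.

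The promoters were searched for a motif of the pathway itself. The cAMP response element, TGACGTCA, bound by CREB-family factors, reads the same on both strands. It was found in 1.79% of the 32851 promoters of 300 bases around a start site that RefSeq gives on GRCm38.p6. It was in 2 of the 74 promoters (2.7%) of the 35 members found in that table, a share near that of all promoters. Both are overlapping promoters of Prkar1a and hold the same single site. The site begins 49 bases upstream of one annotated start and lies downstream of another, at chr11:109650889-109650918 on the plus strand, here with the element in capitals.
Prkar1a promoter site: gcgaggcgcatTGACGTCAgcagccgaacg

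The shorter motif TGACG, contained in the element and counted on either strand, occurred in promoters of 15 of the 35 members; it was in 17 of their 74 promoters (23%) and in 20.8% of all promoters. These matches describe letters only, and no binding was measured.

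The catalytic subunits are the kinase itself. Prkacb, which encodes the beta catalytic subunit, lay at 66.4, 67.8 and 65.5 CPM per kilobase and Prkaca, which encodes the alpha subunit, at 48.5, 45.0 and 49.1. Prkacb was the higher in every library, by 0.48 ± 0.09 log2 units. The size of this lead depended on the length used: it was 1.36 with the longest annotated transcript and 2.30 without length scaling, since the annotated exons of Prkacb sum to 8772 bases and those of Prkaca to 2488. Summed per kilobase, the 4 regulatory genes reached 344 ± 4.10 and the 2 catalytic genes 114 ± 1.12, a difference of 1.59 ± 0.02 log2 units. The difference was 1.02 without length scaling and 0.29 with the mean of log2 levels in place of the sum. Gene by gene the order was mixed, with Prkacb above Prkar2b in every library.

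PKG transcripts were scarce by comparison. Prkg1, the widespread soluble form, had 107, 98 and 85 reads, and Prkg2, the membrane-bound form, 38, 50 and 37. Per kilobase their levels overlapped (0.52, 0.48 and 0.41 against 0.38, 0.50 and 0.36), and Prkg1 over Prkg2 was 0.09 ± 0.12 log2 units, with 2 of 3 libraries above 0 (exact sign-flip permutation p = 0.5). That ratio was 1.06 without length scaling, 0.39 with the longest annotated transcript, 0.18 with a pseudocount of 0.05 and 0.04 with 2. Without replicate 1 it was 0.03 and without replicate 2 it was 0.15. The catalytic PKA genes exceeded the PKG genes by 6.37 ± 0.12 log2 units on the summed level, an 82.8-fold ratio between 2 genes and 2 genes, and by 5.33 with a pseudocount of 2.

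Phosphodiesterases of several classes were expressed side by side. Of the 21 genes that encode a catalytic phosphodiesterase, per kilobase and as a share of their sum, family PDE1 took 25.7% ± 0.44, PDE2 22.0% ± 0.32, PDE4 19.9% ± 0.72, PDE10 12.4% ± 0.47 and PDE7 9.07% ± 0.28 (SD, n = 3). Every other family took under 5% of the sum. The lead of PDE1 held only with lengths taken over all annotated exons. Without length scaling PDE4 led with 25.5%, followed by PDE10 (20.2%) and PDE1 (19.5%), and with the longest annotated transcript PDE4 led with 28.7% against 21.8% for PDE1.

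**Figure D2:**
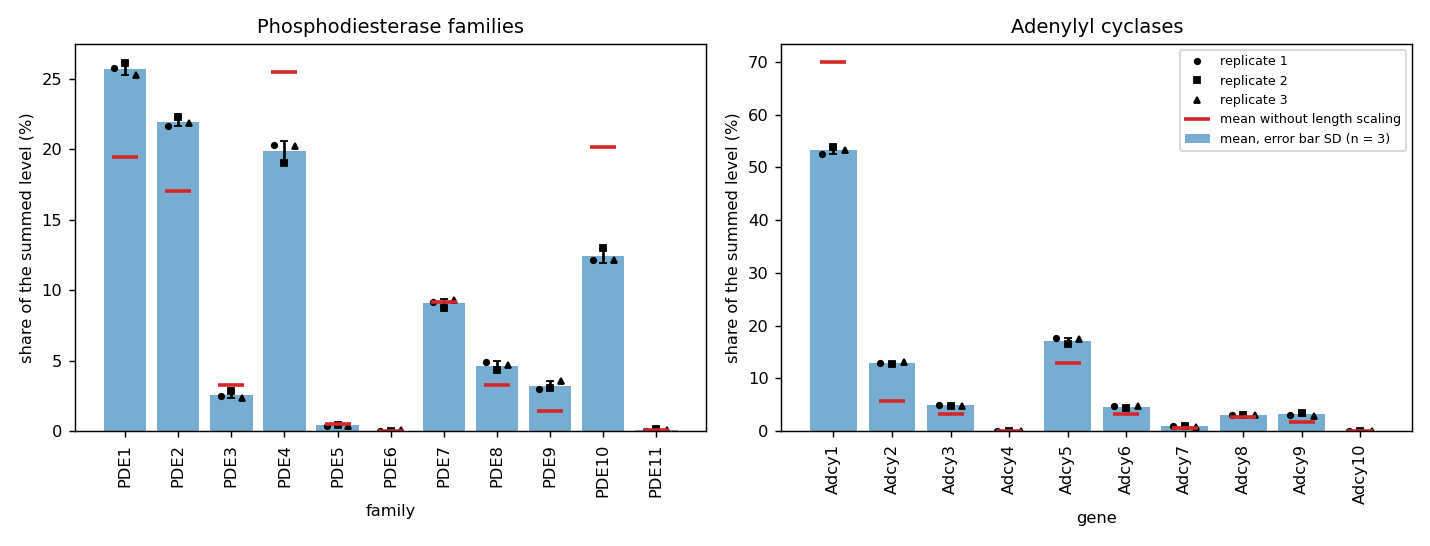
Share of each phosphodiesterase family in the summed level of the 21 catalytic phosphodiesterase genes (left) and of each gene in the summed level of the 10 adenylyl cyclase genes (right), in percent. Bars are means of levels per kilobase with SD (n = 3), symbols the 3 libraries and red dashes the mean without length scaling; PDE1 and Adcy1 lead per kilobase of all annotated exons, at 25.7% and 53.2%, and PDE4 leads without length scaling.

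The calmodulin-dependent PDE1 enzymes, which link calcium to cyclic nucleotide breakdown, were represented by Pde1a (13.5, 13.5 and 12.5 CPM per kilobase) and Pde1b (10.5, 9.85 and 10.7). Pde1a was the higher in every library, by 0.33 ± 0.11 log2 units. Pde1c lay far lower at 0.32, 0.41 and 0.47 CPM per kilobase; its annotated exons, 20067 bases, are the longest of the family.

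Outside PDE1, enzymes that accept both messengers were led by Pde2a, which is activated by cGMP. It lay at 20.4, 20.2 and 20.5 CPM per kilobase, the highest of the phosphodiesterases on that scale. Without length scaling Pde10a was higher than Pde2a in every library (148 against 125 CPM). The annotation gives another gene, Gm45837, that shares 64.3% of the exon bases of Pde2a on the same strand. No deposited row carries that name. Whether the overlap altered the value of Pde2a was not tested, so that value is uncertain. Pde10a, known as the phosphodiesterase of striatal projection neurons, lay at 11.5, 11.8 and 11.3 CPM per kilobase and slightly above Pde1b (0.15 ± 0.08 log2 units; 1.40 without length scaling and 0.51 with the longest annotated transcript). Pde3b, a cGMP-inhibited enzyme of insulin signalling, reached 1.75 ± 0.12 CPM per kilobase and exceeded its paralog Pde3a (0.63 ± 0.06), the ratio of Pde3a over Pde3b being −0.995 ± 0.064 log2 units (−0.51 with a pseudocount of 2). Pde11a had 2, 12 and 4 reads and was not detected.

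Among the cAMP-specific enzymes, the target family of rolipram, PDE4, held the highest gene. Pde4b reached 10.9, 9.87 and 10.9 CPM per kilobase, lowest in replicate 2. Pde4a followed at 4.70, 3.94 and 4.59 and Pde4d at 3.53, 3.47 and 3.43, both below Pde4b in every library (−1.17 ± 0.05 and −1.48 ± 0.08 log2 units). For Pde4a the difference was −1.77 with the longest annotated transcript. The order of Pde4a and Pde4d turned with the length used: without length scaling they lay at 33.7 and 41.7 CPM, and with the longest transcript they took 4.83% and 6.62% of the phosphodiesterase sum. Pde4c had 0, 1 and 2 reads.

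Pde7a, of the rolipram-insensitive families, lay at 8.15, 7.49 and 8.16 CPM per kilobase and exceeded Pde7b by 3.10 ± 0.05 log2 units. That lead was 2.0 with a pseudocount of 2 and 3.91 with 0.05, because Pde7b lay near the value added, at 0.48 ± 0.04. Pde8b, of a high-affinity family, reached 3.61 ± 0.30 CPM per kilobase. It exceeded Pde8a, and Pde8a over Pde8b was −1.77 ± 0.11 log2 units (−2.70 without length scaling and −1.05 with a pseudocount of 2). Pde8a had only 62, 49 and 49 reads.

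The cGMP-specific enzymes were the lowest class. Pde9a, a high-affinity cGMP enzyme of brain, reached 2.81, 2.77 and 3.34 CPM per kilobase and Pde5a, the target of sildenafil, 0.37, 0.39 and 0.37. Pde2a exceeded Pde9a by 2.59 ± 0.12 log2 units (3.52 without length scaling). The photoreceptor genes Pde6a, Pde6b and Pde6c had 4, 1 and 3 reads in all. Summed per kilobase, the 8 cAMP-specific genes exceeded the 5 cGMP-specific genes by 3.03 ± 0.11 log2 units and the 3 calmodulin-dependent genes by 0.38 ± 0.07. With the mean of log2 levels in place of the sum the first difference was 1.77 and the second changed sign, to −0.83. Without length scaling the first was 4.23 and the second 0.96, and the second was 0.86 with the longest annotated transcript.

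Pde6d also fits the symbol rule but is not an enzyme. It encodes a carrier of lipid-modified proteins first found with the photoreceptor phosphodiesterase. At 31.5, 31.1 and 29.4 CPM per kilobase it stood above every phosphodiesterase gene in every library on that scale. At 66.8 CPM without length scaling it lay below Pde10a, Pde2a, Pde4b and Pde1a. It was left out of the sums above.

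**Figure D3:**
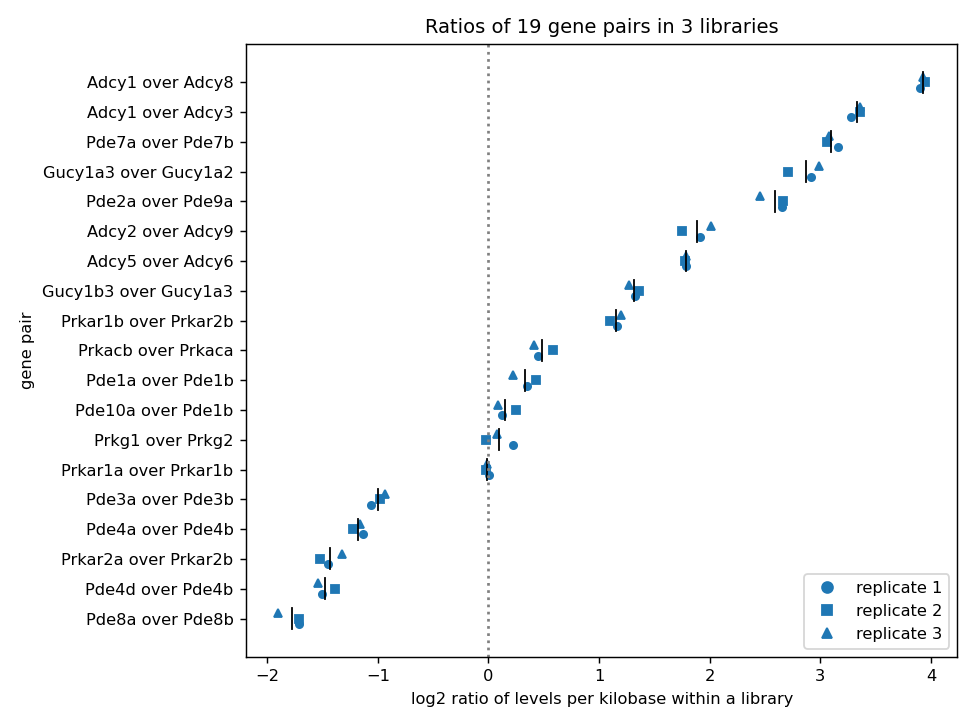
Log2 ratio of the levels per kilobase of 19 gene pairs within each library, with 0.5 CPM per kilobase added to each level. Symbols are the 3 libraries and black bars their mean; 17 pairs lie on the same side of 0 in every library, and Prkar1a over Prkar1b and Prkg1 over Prkg2 do not.

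The sign of the ratio was positive in all libraries for 12 of 19 gene pairs and negative in all for 5, and the SD of a pair was 0.01 to 0.15. Exact two-sided sign-flip permutation tests gave p = 0.25 for each of these 17 (Benjamini-Hochberg adjusted 0.28) and for each of the 6 list ratios (adjusted 0.25). This is the smallest p that 3 libraries allow, so no ratio could pass 0.05. In the order of the 36 detected members by level per kilobase, 22 of the 35 neighbouring pairs kept their order in all 3 libraries. The remaining 13 did not, among them Prkaca and Gucy1b3, Adcy5 and Gucy1a3, and Adcy2 and Pde1a.

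Of 48 other genes of the pathway, in 8 lists, 26 were detected. That share is near the 58.2% of protein coding genes detected, so the counts by list below are description only. All 3 genes of the heat-stable PKA inhibitors were detected, and Pkia led with 304 ± 12.3 CPM per kilobase (1132 ± 45.8 CPM), ahead of Pkig (10.4 ± 0.63) and Pkib (0.11 ± 0.004). Summed per kilobase, the log2 ratio of catalytic PKA genes over inhibitor genes was −1.46 ± 0.07. It was −0.74 without length scaling and −0.81 with the longest annotated transcript. With the mean of log2 levels the sign was the opposite, at 2.16.

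Of 15 A-kinase anchoring protein genes, whose products place PKA in the cell, 12 were detected. Akap11 (22.8 ± 0.45 CPM per kilobase), Akap1 (19.2 ± 0.73) and Akap8l (17.5 ± 0.22) were highest per kilobase. Without length scaling the highest were Akap11 (251 CPM), Akap9 (207 CPM) and Akap6 (172 CPM). All 6 CREB-family and coactivator genes were detected, led per kilobase by Crtc1 (14.4 ± 0.62), Creb1 (5.81 ± 0.21) and Crtc2 (5.14 ± 0.47). Without length scaling Crtc3 (29.4 CPM) lay above Crtc2 (21.1 CPM). Of 6 further cAMP effectors 3 were detected, the exchange factor Rapgef4 (8.45 ± 0.12), the PKA-related kinase Prkx (5.56 ± 0.29) and Rapgef3 (2.22 ± 0.12).

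On the cGMP side, 1 of 3 nitric oxide synthases was detected, the neuronal Nos1 at 3.73 ± 0.06 CPM per kilobase, and 1 of 7 membrane guanylyl cyclases, Npr2, the receptor for C-type natriuretic peptide, at 4.26 ± 0.09. Nos3 and Nos2 had 36 and 3 reads, Npr1 28 and Gucy2e 33. None of the 6 cyclic nucleotide-gated channel genes was detected, with Cnga4 and Cnga2 highest at 13 reads each, and neither of the 2 genes of the PDE6 inhibitory subunit (Pde6g, 16 reads, and Pde6h, 6 reads).

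The libraries were last compared with each other, to see how far members vary within the group. A chi-square test of recovered reads was run over all 15131 genes averaging at least 10 reads, with Benjamini-Hochberg adjustment over all of them. It called 8.62% of genes beyond counting error, and 3 of the 37 members tested: Adcy1, Pde4b and Pde1c. The share among members is near that of all genes. Adcy1 had 12618, 13054 and 13072 reads, lowest in replicate 1, a range of 1.05-fold after scaling (adjusted p = 0.00777). Pde4b had 2165, 1948 and 2174 reads, lowest in replicate 2, a range of 1.11-fold (adjusted p = 0.0259). Pde1c had 121, 153 and 178 reads, a range of 1.48-fold (adjusted p = 0.0475).

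Which members passed depended on the scaling and the libraries: with total reads as size factors they were Pde4a, Pde4b and Prkar2b, without replicate 2 Pde1c alone, and without replicate 1 Pde4b and Prkaca. Against the dispersion trend, 0.126% of all genes and no member passed. No member had an unadjusted p under 0.05, and only 1.14% of all genes did. The trend was recovered from the deposited values of these same libraries. This test is thus strict, and its lack of calls says little about the members. Among the 7 detected cAMP-specific phosphodiesterases, 5 were lowest in replicate 2, where their class summed to 262 CPM against 288 and 286 in replicates 1 and 3. Over all genes tested 38.5% were lowest in that library, and over the 36 detected members 13 (36.1%). More detected members, 18 (50%), were lowest in replicate 3, against 35% of all genes tested. For replicate 1 the numbers were 5 (13.9%) and 26.6%. The comparison for this class was not planned and was not tested. Genes of a library are not replicates, so these counts are description only.

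**Figure D4:**
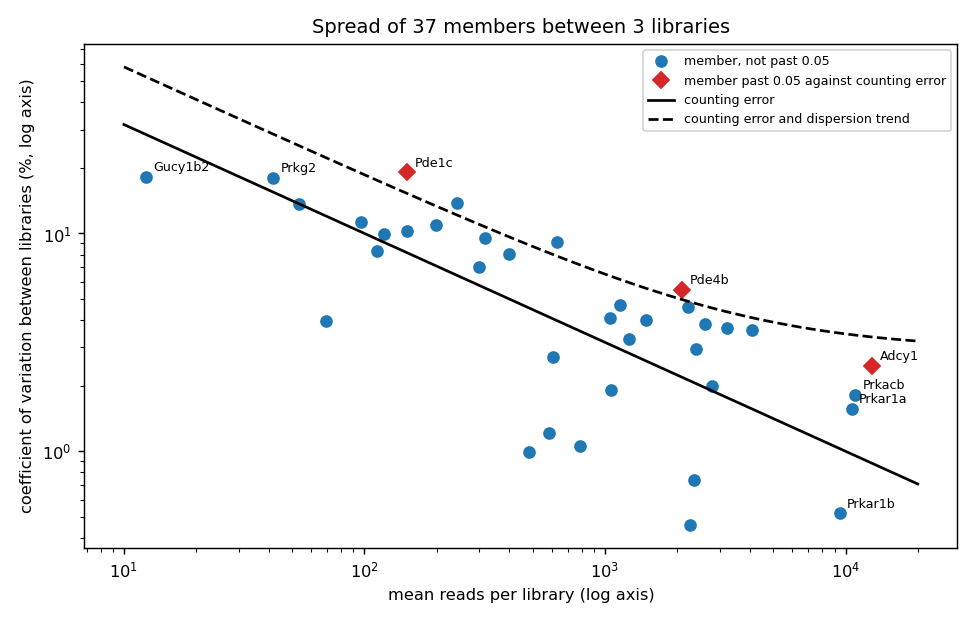
Coefficient of variation between the 3 libraries against mean reads per library for the 37 members tested (both log axes). The solid line is counting error, the dashed line adds the dispersion trend, and red diamonds are Adcy1, Pde4b and Pde1c, called beyond counting error.

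The coefficient of variation between libraries had a median of 4.0% over the 37 members tested and 5.37% over all genes tested. For the 18 members with a mean of 1000 reads or more it was 3.11%, against 3.13% for all such genes.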

How the data were processed

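RNA of 3 libraries of 1 group was measured by sequencing. The authors deposited 1 file for each library, which pairs gene symbols with log2 values. Per the submitters' processing notes, FastQC, HISAT2, featureCounts and DESeq2 were used on GRCm38; the sources give no versions, settings or strand rule. The deposited log2 values have the form of a regularized log, which shrinks differences between libraries (SD of detected members 0.002 to 0.03). Inverting that transformation, a negative binomial fit with a ridge penalty described by 6 parameters common to all genes, gave back reads. Of 67797 values 99.9%, and 100.0% of those of the 42 members inverted, came within 0.1 of a whole number, and for 100.0% of genes a refit landed within 0.001 of what was deposited. The 3097 genes with 1 read took 3 patterns and were assigned by pattern. The recovered size factors matched median-of-ratios factors of the reads. Intervals and floors cover counting error only. Recovery and tests were tried on reads simulated with counting error only (Python 3.11.15, NumPy 2.4.6, SciPy 1.17.1). The simulated log2 values came from the same fitted model. They therefore cannot check its form, nor the dispersion trend test on real spread.

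Names were matched to GENCODE M21, 620 rows by an older symbol and 45296 by the current one. Lengths are unions of annotated exons, which can exceed the transcript expressed. Exons of 11 members overlap another gene in GENCODE M21, and reads there may have been dropped or misassigned. Some of these other genes, such as Gm45837, have no row of that name in the deposited values. Adcy3 shares 22.1% with Cenpo on the opposite strand. Ratios are log2 differences within a library with 0.5 CPM per kilobase added. Other settings tried were the deposited values, pseudocounts, lengths, thresholds, scalings and each library left out. The gene family and the lists were chosen as subjects with earlier results of these data known; within the family, the symbol rule decides membership. Every member is accounted for. Both members of each pair, the 3 highest detected of each role and members past the between-library test are given library by library or as mean ± SD. Undetected members are given by reads, and of each pathway list the 3 highest genes per kilobase are named. Other genes, among them Akap9, Akap6, Crtc3 and the single cell type markers given with values, were named after their values were seen.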

Additional observations from a re-analysis of the deposited data

How the results depend on the processing

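Of 415 alternative values, 409 kept their direction, stayed within 1 SD of the value reported (levels) or within 1.5 times it (counts), 2 moved and 4 reversed. A ratio of 1 sign in all 3 libraries keeps it whichever library is dropped, so those settings test little. Nor can leaving out 1 of 3 libraries move a mean level by 1 SD, so those level values could not fail. Reversed were Prkar1a over Prkar1b without length scaling (0.17), and, with the mean of log2 levels in place of the sum, cAMP-specific over calmodulin-dependent phosphodiesterases (−0.83), adenylyl over soluble guanylyl cyclases (−0.51; 0.70 as a sum of 10 and 4 genes) and catalytic PKA genes over PKA inhibitor genes (2.16). The first follows from exon length. In the last 3 the mean of log2 levels gives genes at low level the same weight as the leading gene. The count of members beyond counting error was 5 with a minimum of 50 reads, and 1 to 3 with 1 library left out. On deposited values every gene pair and list ratio kept its direction. The reads were recovered from those same values, so this setting tests little. Detection and small ratios are limited by depth for genes under about 100 reads, such as Prkg2, Pde5a and Pde8a. No paired analysis was possible because there is a single group.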

Other observations

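Genes whose symbols resemble the family but fall outside the symbol rule were examined after the data were seen. Adcyap1r1, the receptor of the cAMP-raising peptide PACAP, was expressed at 31.2 ± 0.40 CPM per kilobase (3848, 3817 and 3949 reads), and Adcyap1, which encodes the peptide, at 4.56 ± 0.20. Pde4dip, which encodes a centrosome and Golgi scaffold and no phosphodiesterase, reached 19.4 ± 0.35 CPM per kilobase, and Pde12, which encodes an RNA-cleaving mitochondrial enzyme, 10.2 ± 0.28. The row Prkaca-ps1, named as a pseudogene of Prkaca, had no reads in any library.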
